A study of Mus musculus with 2 samples.

Results

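The transforming growth factor beta (TGF-beta) system was described here through 10 genes, taken by symbol from the 55357 genes listed in the matrices. They are the ligands Tgfb1, Tgfb2 and Tgfb3, the receptors Tgfbr1, Tgfbr2, Tgfbr3 and Eng, and the latent binders Ltbp1, Ltbp3 and Ltbp4. All 10 were listed and had UMIs in both libraries. No rule on measured values was used to choose them, but they were chosen with earlier results of these data known. Hearts of C57BL/6 mice were dissociated and captured on the 10x Chromium platform in 2 libraries, 1 named Sham and 1 named TAC, each from 3 to 5 hearts pooled. For the TAC library, male mice aged 8 weeks had the aortic arch ligated (transverse aortic constriction, a model of pressure overload), and hearts were taken after 6 weeks. The Sham mice had the same surgery without the constriction, while the design text of the deposit calls the comparison mice uninjured, and their age and sex are not given in the labels. With 1 library per condition there was no replicate and no test, so each ratio below describes these 2 libraries, and the intervals are exact 95% intervals that cover counting error only.

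TGF-beta ligands are made as precursors and secreted in a latent complex, in which the ligand stays bound to its own propeptide. Latent TGF-beta binding proteins (LTBPs) attach this complex to fibrillin fibres of the matrix, and integrins or proteases release the ligand from it. The free ligand binds TGFBR2, which phosphorylates TGFBR1, and the pair passes the signal to SMAD2 and SMAD3. TGFBR3 (betaglycan) and ENG (endoglin) are co-receptors that present ligand. In the heart the pathway is best known for its part in fibroblast activation and matrix deposition.

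The Sham library gave 9475 cells with a median of 1906 UMIs and the TAC library 9452 cells with a median of 2080, after removal of doublets. A UMI (unique molecular identifier) counts 1 captured mRNA molecule. Cell types were rebuilt from marker genes, and the 5 large ones were cardiomyocytes (2512 Sham and 2398 TAC cells), fibroblasts (2290 and 2122), endothelial cells (1904 and 2254), macrophages (1412 and 1347) and pericytes (1064 and 1043). Lymphatic endothelial cells (86 and 110), smooth muscle cells (50 and 43), T cells (37 and 58) and B cells (35 and 36) were few. Cardiomyocytes held 52.0% of all UMIs in Sham and 49.3% in TAC, fibroblasts 20.9% and 19.4%, and endothelial cells 9.36% and 12.1%. Macrophages held 8.51% and 9.80%, and pericytes 7.07% and 7.22%. Levels are UMIs of a gene per 1000000 UMIs of a cell type, and they were compared for 1 gene at a time, since capture differs between genes. RNA of other cell types was present in each type. Fibroblast markers summed to 4.08% of their fibroblast level in Sham macrophages, 13.2% in pericytes, 6.13% in endothelial cells and 1.23% in cardiomyocytes, with 3.95%, 12.4%, 6.01% and 1.33% in TAC. The part of such RNA in the levels of the 10 genes, those of pericytes among them, was not tested.

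**Figure D1:**
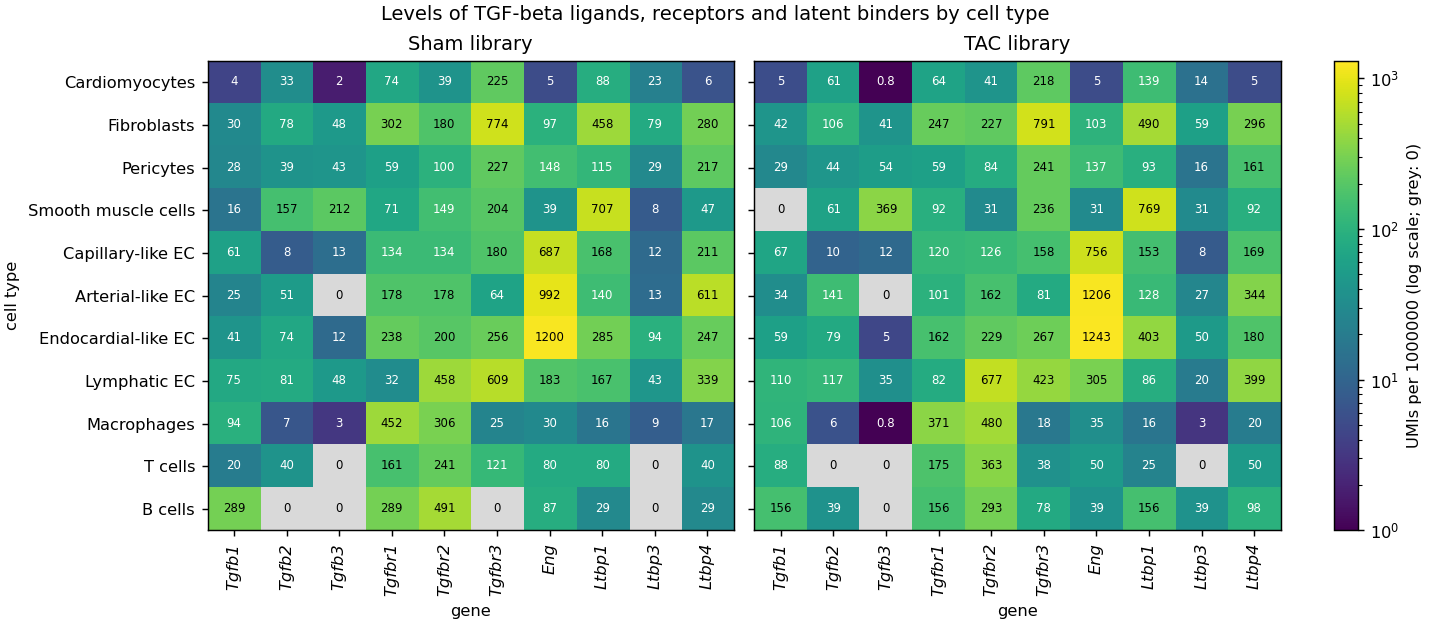
Levels of the 10 genes (columns) in 11 cell types (rows; EC, endothelial cells) of the Sham library (left) and the TAC library (right), as UMIs per 1000000 UMIs of the cell type on a logarithmic colour scale, with the level printed in each cell and grey for 0. Read down a column, Tgfb1 was high in macrophages, Tgfb3 in smooth muscle cells, Tgfbr3 in fibroblasts and Eng in endothelial cells, in both libraries.

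The ligands differed in their main sources, though fibroblasts held a large share of both Tgfb2 and Tgfb3. Tgfb1, the ligand best known from immune cells and platelets, was at 94.2 per 1000000 in Sham macrophages (81.8 to 108, 208 UMIs) and at 106 in TAC macrophages (94.3 to 120, 278 UMIs). Endothelial cells followed at 56.8 and 63.7, and the macrophage level was 1.66 times theirs in Sham (1.33 to 2.07) and 1.67 times in TAC (1.39 to 2.01). Fibroblasts had 30.4 and 41.9, pericytes 27.8 and 28.6, and cardiomyocytes only 4.38 and 5.49. The Tgfb1 level in B cells was 289 in Sham and 156 in TAC, but on 10 and 8 UMIs, and that in lymphatic endothelial cells (75.4 and 110) was not separated from macrophages beyond counting error. Of all Tgfb1 UMIs, macrophages held 31.5% in Sham and 31.9% in TAC, endothelial cells 20.9% and 23.6%, and fibroblasts 165 of 660 and 217 of 872 UMIs.

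Tgfb2, the ligand with a known part in heart development, had most of its UMIs in cardiomyocytes and fibroblasts. Its level was 77.9 per 1000000 in Sham fibroblasts (70.7 to 85.7, 423 UMIs) and 33.4 in Sham cardiomyocytes (30.4 to 36.6, 450 UMIs), so that fibroblasts stood 2.34 times above cardiomyocytes (2.04 to 2.67). In TAC the levels were 106 (97.2 to 115, 548 UMIs) and 61.2 (57.0 to 65.6, 803 UMIs), and the factor between them was 1.73 (1.55 to 1.93). Macrophages had 6.79 and 6.13, the lowest of the 5 large types in both libraries. Cardiomyocytes carried many UMIs per cell (medians of 4504.5 in Sham and 4916 in TAC) and held 52.0% and 49.3% of the UMIs of all genes. Their share of all Tgfb2 UMIs was 42.9% in the Sham and 50.5% in the TAC library, next to 40.3% and 34.5% for fibroblasts. Lymphatic endothelial cells had 80.8 in Sham (45.2 to 133, 15 UMIs) and 117 in TAC (79.2 to 168, 30 UMIs), not separated from fibroblasts beyond counting error. Smooth muscle cells had 20 Tgfb2 UMIs in Sham (157 per 1000000, 96.0 to 243), 7 of them in 1 cell, and 6 in TAC (61.5, 22.6 to 134).

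Tgfb3 had its highest level in smooth muscle cells and most of its UMIs in fibroblasts and pericytes. Smooth muscle cells had 212 per 1000000 in Sham (140 to 309, 27 UMIs) and 369 in TAC (258 to 511, 36 UMIs), which was 4.41 times the fibroblast level in Sham (2.85 to 6.57) and 8.96 times in TAC (6.11 to 12.8). Of these UMIs, 13 in Sham and 14 in TAC came from 1 cell each, and in cells thinned to 1000 UMIs the share with a Tgfb3 UMI was 11.4% (3.79 to 24.6) of 44 cells and 19.5% (8.82 to 34.9) of 41. Fibroblasts had 48.1 and 41.2 and pericytes 42.5 and 54.1, and these 2 types did not differ beyond counting error in Sham. Lymphatic endothelial cells had 48.5 in Sham (22.2 to 92.0, 9 UMIs) and 35.2 in TAC (16.1 to 66.8, 9 UMIs). They were not separated from fibroblasts beyond counting error. Cardiomyocytes (1.78 and 0.838) and macrophages (3.17 and 0.766) were near 0. Of all Tgfb3 UMIs, fibroblasts held 59.0% in Sham and 52.2% in TAC. Pericytes held 17.6% and 25.5%, and the few smooth muscle cells 6.11% and 8.82%. The Tgfb3 gene overlaps Ttll5 on the other strand over 5149 bp, Ttll5 had 1800 Sham and 1942 TAC UMIs, and the sources used here do not say how the counting treated strand.

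**Figure D2:**
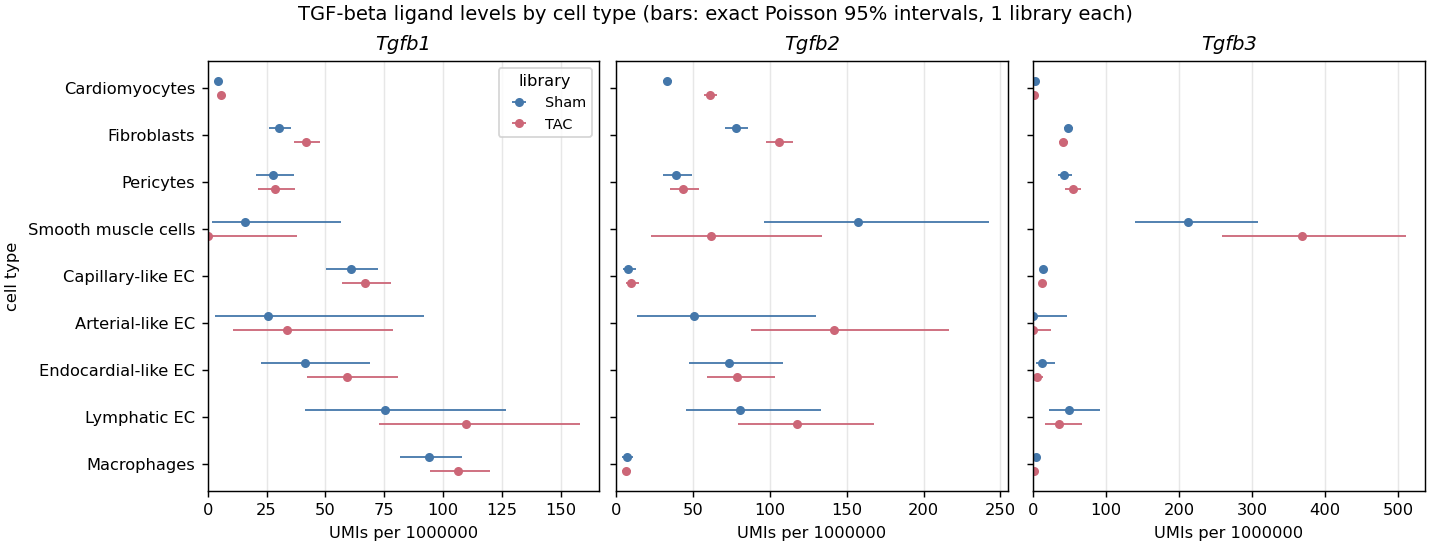
Levels of Tgfb1, Tgfb2 and Tgfb3 (panels, UMIs per 1000000, linear axes that differ between panels) in 9 cell types of the Sham (blue) and TAC (red) libraries, with bars for exact Poisson 95% intervals. Tgfb1 was highest in macrophages among the 5 large types, Tgfb2 in fibroblasts and cardiomyocytes stood higher in TAC, and Tgfb3 was highest in smooth muscle cells.

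The mix of ligand transcripts therefore differed between cell types. Of the 533 ligand UMIs of Sham cardiomyocytes, 84.4% were Tgfb2, and of the 886 in TAC 90.6%. In macrophages 90.4% of 230 and 93.9% of 296 were Tgfb1. Fibroblasts were mixed, with 19.4% Tgfb1, 49.8% Tgfb2 and 30.7% Tgfb3 of 849 UMIs in Sham and 22.2%, 56.0% and 21.8% of 978 in TAC. Pericytes were spread over all 3 ligands, with Tgfb3 at 38.8% of 201 and 42.8% of 243. Endothelial cells divided by subtype, since Tgfb1 made up 73.9% of 165 ligand UMIs in capillary-like cells and Tgfb2 58.1% of 43 in endocardial-like cells of the Sham library. In TAC these shares were 75.7% of 214 and 55.3% of 94. These shares count captured UMIs, and a gene that is captured better than another weighs more in them.

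On the receiving side, both signalling receptors were highest in macrophages among the 5 large cell types. Tgfbr1, the type I receptor kinase, was at 452 per 1000000 in Sham macrophages (424 to 481, 998 UMIs) and 371 in TAC macrophages (348 to 395, 969 UMIs). Fibroblasts had 302 (288 to 317) and 247 (234 to 261), and the macrophage level was 1.5 times theirs in both libraries (1.38 to 1.62 in Sham, 1.38 to 1.63 in TAC). Endothelial cells followed with 150 and 127, then cardiomyocytes with 74.1 and 64.5 and pericytes with 58.9 and 59.3. Endocardial-like cells (238 and 162) stood above capillary-like cells (134 and 120) within the endothelium.

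Tgfbr2, the ligand-binding type II receptor kinase, was at 306 per 1000000 in Sham macrophages (283 to 330, 675 UMIs) and 480 in TAC macrophages (454 to 507, 1253 UMIs). The fibroblast levels were 180 (169 to 191) and 227 (214 to 241), and the macrophage level was 1.70 times theirs in Sham (1.54 to 1.88) and 2.11 times in TAC (1.95 to 2.29). Lymphatic endothelial cells were higher still, at 458 in Sham (366 to 566, 85 UMIs) and 677 in TAC (580 to 786, 173 UMIs), where Tgfbr1 was at 32.3 (6 UMIs) and 82.2 (21 UMIs). Lymphatic cells were thus first of the types with over 50 cells for Tgfbr2 and last for Tgfbr1 in Sham, though not beyond counting error below pericytes (1.82, 0.810 to 5.07). Endothelial cells had 145 and 149, pericytes 99.7 and 84.3, and cardiomyocytes 39.2 and 40.5. B cells had 491 and 293 and T cells 241 and 363, on 12 to 29 UMIs each.

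**Figure D3:**
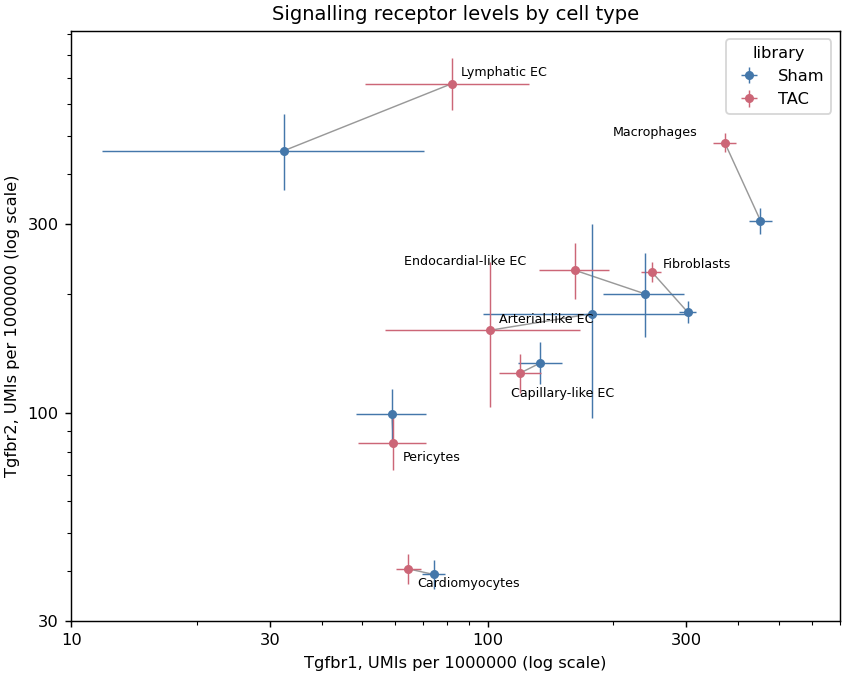
Level of Tgfbr2 against level of Tgfbr1 (UMIs per 1000000, both axes logarithmic) in 8 cell types, with bars for exact Poisson 95% intervals and a grey line from the Sham point (blue) to the TAC point (red) of each type. Macrophages moved up and to the left, from 452 and 306 to 371 and 480, fibroblasts moved the same way over a shorter distance, and cardiomyocytes lay lowest in Tgfbr2.

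Signalling needs both kinases in 1 cell. In cells thinned to 1000 UMIs, UMIs of both Tgfbr1 and Tgfbr2 were found in 6.43% of 1011 Sham macrophages (5.00 to 8.12) and 8.00% of 1125 TAC macrophages (6.48 to 9.74). The product of the 2 single shares was 6.58% and 8.48%, so the receptors were seen together about as often as their separate shares give. The share with both was 3.32% and 3.15% in fibroblasts, 1.28% and 1.38% in endothelial cells, 0.343% and 0.733% in pericytes and 0.283% and 0.461% in cardiomyocytes. Without thinning, a Tgfbr2 UMI was seen in 32.4% of Sham and 51.6% of TAC macrophages at median depths of 1314.5 and 1661 UMIs, and thinned in 24.7% (22.1 to 27.5) and 34.9% (32.1 to 37.8). Thinning left out the cells under 1000 UMIs, 401 of 1412 Sham and 222 of 1347 TAC macrophages. The shares with and without thinning thus cover different sets of cells. For scale, the endothelial co-receptor Eng gave a UMI in 1.01% of thinned Sham cardiomyocytes and 45.9% of thinned Sham endothelial cells. The median depths of all cells of these types were 4504.5 and 1105 UMIs, and thinning left out 36 of 2512 and 814 of 1904 cells. No cell type of the heart is known to lack Tgfbr1 or Tgfbr2, so a background for them was not set.

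The highest co-receptor levels were those of Tgfbr3 in fibroblasts and Eng in endothelial cells. Tgfbr3 was at 774 per 1000000 in Sham fibroblasts (751 to 798, 4201 UMIs) and 791 in TAC fibroblasts (767 to 815, 4091 UMIs), and these cells held 50.4% and 49.9% of its UMIs, next to 36.4% and 34.9% in cardiomyocytes. Lymphatic endothelial cells came next at 609 (502 to 732) and 423 (347 to 510), below fibroblasts by a factor of 1.27 in Sham (1.05 to 1.55) and 1.87 in TAC (1.55 to 2.29). In Sham, 30 of the 113 UMIs of these lymphatic cells came from 1 cell. Pericytes (227 and 241), cardiomyocytes (225 and 218) and smooth muscle cells (204 and 236) followed, and neighbours in that order did not separate beyond counting error. Macrophages had only 25.4 and 17.6, so that the cells with most Tgfbr1 and Tgfbr2 had the least Tgfbr3 of the 5 large types. Eng was at 768 in Sham endothelial cells (734 to 804, 1866 UMIs) and 876 in TAC endothelial cells (844 to 909, 2833 UMIs), which was 5.18 times the pericyte level in Sham (4.56 to 5.91) and 6.38 times in TAC (5.62 to 7.26). Within the endothelium Eng was 1200 in endocardial-like, 992 in arterial-like and 687 in capillary-like cells of the Sham library, and 1243, 1206 and 756 in TAC. Endothelial cells held 65.2% of Eng UMIs in Sham and 73.0% in TAC, and 9.36% and 12.1% of the UMIs of all genes.

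Fibroblasts held the most UMIs of each latent binder in both libraries. Ltbp1 was highest in smooth muscle cells, with 707 per 1000000 in Sham (568 to 869, 90 UMIs) and 769 in TAC (604 to 963, 75 UMIs), followed by fibroblasts with 458 (440 to 476) and 490 (471 to 509). Cardiomyocytes had 88.3 in Sham and 139 in TAC, and with this depth they held 26.4% and 34.1% of all Ltbp1 UMIs, next to 55.1% and 47.3% in fibroblasts. Ltbp3 was highest in fibroblasts among the 5 large types, with 79.1 and 59.1, which was 3.48 times the cardiomyocyte level in Sham (3.00 to 4.05) and 4.11 times in TAC (3.42 to 4.95). Endocardial-like cells had an Ltbp3 level of 94.1 in Sham (64.4 to 133, 32 UMIs) and 50.04 in TAC (34.4 to 70.3, 33 UMIs), against 11.9 and 7.83 in capillary-like cells. Ltbp4, which also serves elastic fibre assembly, was at 280 and 296 in fibroblasts, 229 and 179 in endothelial cells and 217 and 161 in pericytes, and near 0 in cardiomyocytes (6.23 and 5.26). Lymphatic endothelial cells had an Ltbp4 level of 339 in Sham (261 to 434, 63 UMIs) and 399 in TAC (325 to 484, 102 UMIs), which was 1.21 times the fibroblast level in Sham (0.927 to 1.56) and 1.35 times in TAC (1.09 to 1.65). The Ltbp4 level in arterial-like cells was 611 in Sham (450 to 810, 48 UMIs) and 344 in TAC (256 to 452, 51 UMIs).

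TAC was set against Sham in each of the 5 large types, where 42 of the 50 pairs of gene and cell type had at least 100 UMIs over both libraries. A pair was counted as higher or lower when the ratio of levels was at least 1.5 or at most 1 over 1.5. By this fold 4 pairs were higher in TAC, 1 was lower and 37 lay between. In cardiomyocytes 2 of the 9 genes with enough UMIs were higher and 1 lower, where 10.1% of all genes were higher and 5.88% lower. In endothelial cells 1 of 9 was higher and 0 lower (6.71% and 4.64% of all genes), and in macrophages 1 of 5 was higher and 0 lower (7.15% and 6.54%). In fibroblasts 0 of 10 passed in either direction (7.96% and 3.38%), and in pericytes 0 of 9 (4.48% and 4.1%). The number of pairs past the fold was thus near the share seen over all genes, and the 10 genes as a set did not stand out by it.

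**Figure D4:**
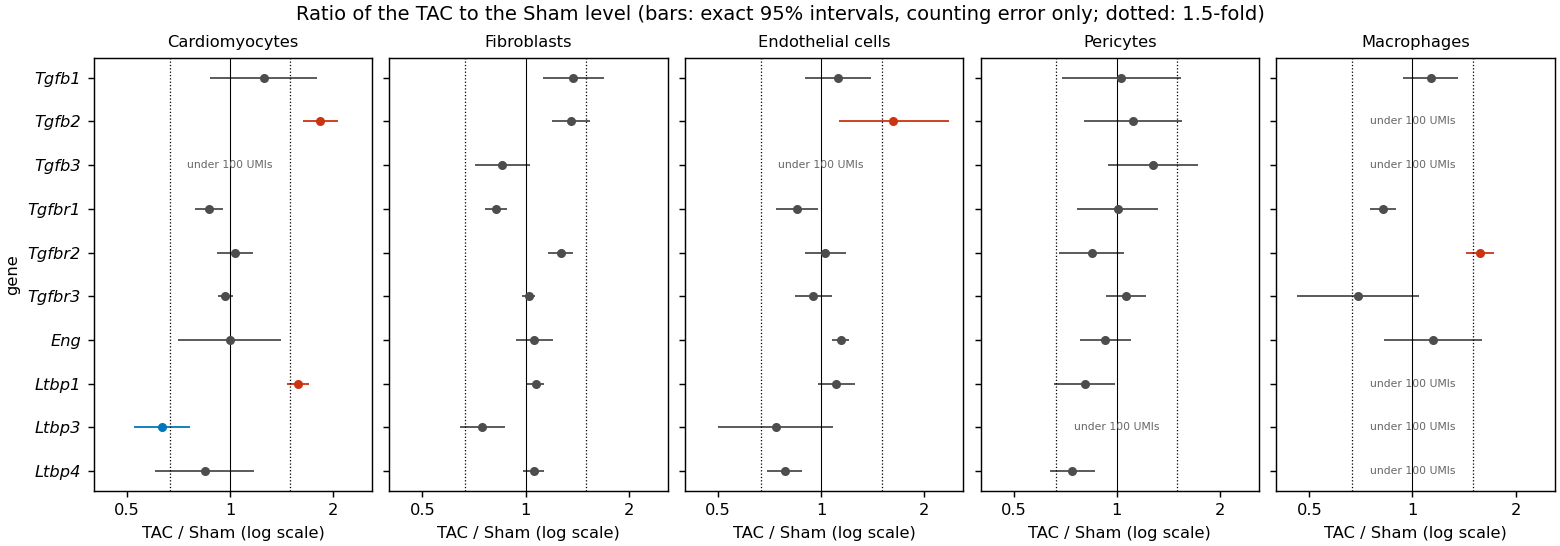
Ratio of the TAC to the Sham level (x axis, logarithmic) of the 10 genes in the 5 large cell types (panels), with bars for exact 95% intervals of counting error and dotted lines at the fold of 1.5 in each direction. Red points (Tgfb2 and Ltbp1 in cardiomyocytes, Tgfb2 in endothelial cells, Tgfbr2 in macrophages) are the 4 pairs past the fold upward, the blue point (Ltbp3 in cardiomyocytes) is the 1 past it downward, and pairs under 100 UMIs have no point.

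In cardiomyocytes the Tgfb2 level was 33.4 per 1000000 in Sham and 61.2 in TAC, a ratio of 1.83 (1.63 to 2.06) on 450 and 803 UMIs. Ltbp1 went the same way, from 88.3 (83.3 to 93.4, 1190 UMIs) to 139 (133 to 146, 1827 UMIs), a ratio of 1.58 (1.47 to 1.70). Ltbp3 went the other way, from 22.7 (20.2 to 25.4, 306 UMIs) to 14.4 (12.4 to 16.6, 189 UMIs), a ratio of 0.634 (0.526 to 0.763). The library intervals did not overlap for any of these 3 genes, but the genes were picked by their ratio and the intervals cover counting error only. This therefore adds nothing on a difference between the conditions. In thinned cells the share with a Tgfb2 UMI was 2.87% of Sham (2.25 to 3.60) and 6.37% of TAC cardiomyocytes (5.42 to 7.42), against 0.495% and 0.267% of macrophages. The receptors of the same cells were within the fold, with ratios of 0.870 for Tgfbr1 (0.793 to 0.954), 1.03 for Tgfbr2 (0.914 to 1.17) and 0.969 for Tgfbr3 (0.920 to 1.02). Among cardiomyocyte genes of similar span, 6.70% of those between 60 and 200 kb, as Tgfb2 is, and 10.03% of those over 200 kb, as Ltbp1 is, were higher by the fold, and 7.82% of those under 20 kb, as Ltbp3 is, were lower. Malat1, a nuclear RNA, made up 13.1% of cardiomyocyte UMIs in Sham and 16.2% in TAC, and mitochondrial genes 0.260% and 0.142%. Immediate-early genes, a sign of recent stress or stimulation, had a median ratio of 1.33 and ribosomal protein genes of 1.15 in these cells, and the part of all these in the 3 ratios was not tested.

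The cardiomyocytes of both libraries were also clustered together with these 10 genes left out, which gave 2 clusters that each library filled. One was led by Pdzrn4 and held 1119 Sham and 1585 TAC cells, and the other was led by Ptgds and Ankrd1 and held 1387 and 806. Most Sham cardiomyocytes thus lay in the second cluster and most TAC ones in the first. Tgfb2 was higher in TAC within both, with ratios of 1.69 (1.44 to 1.99) in the Pdzrn4 cluster and 2.35 (1.98 to 2.80) in the Ankrd1 cluster, where its level was 36.2 in Sham and 85.1 in TAC. Ltbp1 had ratios of 1.51 (1.38 to 1.65) and 1.41 (1.23 to 1.62), and its level in Sham differed between the clusters, at 102 and 73.1. Ltbp3 had ratios of 0.616 (0.488 to 0.776) and 0.624 (0.442 to 0.869). The direction of each of the 3 ratios was the same in both clusters, while Ltbp1 in the Ankrd1 cluster was under the fold of 1.5.

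**Figure D5:**
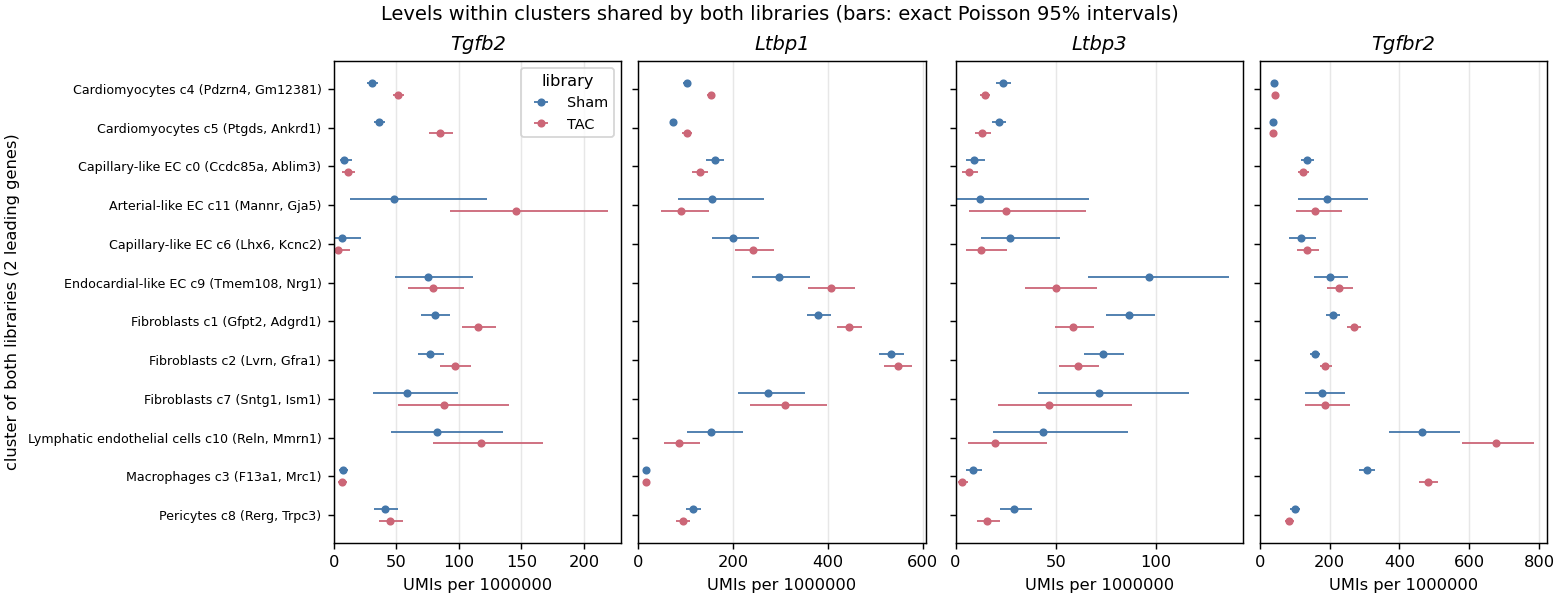
Levels of Tgfb2, Ltbp1, Ltbp3 and Tgfbr2 (panels, UMIs per 1000000, linear axes that differ between panels) in the 12 clusters with at least 50 cells of each library when both libraries were clustered together, with each cluster's 2 leading genes and bars for exact Poisson 95% intervals. Tgfb2 was higher in TAC (red) than in Sham (blue) in both cardiomyocyte clusters, and Tgfbr2 in the macrophage cluster went from 306 to 482.

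In macrophages the ratio of Tgfbr2 was 1.57 (1.43 to 1.73) and that of Tgfbr1 0.821 (0.751 to 0.898). The receptors thus went in opposite directions in the same cells, and neither interval held 1. Fibroblasts had the same directions, with a smaller ratio of 1.27 for Tgfbr2 (1.16 to 1.38) and one of 0.819 for Tgfbr1 (0.760 to 0.881), close to that of macrophages. The Tgfb1 level of macrophages differed by no more than counting error (1.13, 0.941 to 1.36). Macrophage cells were deeper in TAC (median 1661 against 1314.5 UMIs), and the ribosomal protein genes had a median ratio of 1.28 in them. The part of these in the Tgfbr2 ratio was not tested.

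Fibroblasts had no gene past the fold, although several intervals lay off 1. Their ratio was 1.38 for Tgfb1 (1.12 to 1.70), 1.36 for Tgfb2 (1.19 to 1.55), 0.856 for Tgfb3 (0.711 to 1.03) and 0.748 for Ltbp3 (0.644 to 0.868). Ltbp1 (1.07, 1.01 to 1.13), Ltbp4 (1.06, 0.983 to 1.13), Tgfbr3 (1.02, 0.978 to 1.07) and Eng (1.06, 0.939 to 1.20) lay between 1.02 and 1.07. When both libraries were clustered together, the fibroblasts led by Gfpt2, Adgrd1 and Pi16 (868 Sham and 937 TAC cells) had Tgfb1 levels of 42.9 and 60.8, a ratio of 1.42 (1.09 to 1.85), and those led by Lvrn and Gfra1 (1332 and 1117 cells) had 21.5 and 23.9, a ratio of 1.11 (0.768 to 1.61). The Pi16 cluster also had more Tgfbr2 (209 and 269) than the Lvrn cluster (157 and 188), and less Ltbp1 (380 and 445 against 533 and 547). Ribosomal protein genes had a median ratio of 1.42 and immediate-early genes of 1.49 in fibroblasts, and their part in these ratios was not tested.

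In endothelial cells Tgfb2 was 18.5 per 1000000 in Sham (13.5 to 24.8, 45 UMIs) and 97 of 3233479 UMIs in TAC (24.3 to 36.6 per 1000000), a ratio of 1.62 (1.13 to 2.36). One Sham cell gave 10 of the 45 UMIs and one TAC cell 12 of the 97. This gene was spread unevenly over the subtypes, with levels of 7.96 and 9.89 in capillary-like, 73.5 and 78.8 in endocardial-like and 50.9 and 141 in arterial-like cells, on 4 and 21 UMIs in the last. The subtype shares differed too, as endocardial-like cells made up 2.04% of Sham and 3.16% of TAC cells and arterial-like cells 0.602% and 0.973%. The ratio within capillary-like cells was 1.24 (0.633 to 2.50) and within endocardial-like cells 1.07 (0.654 to 1.80), so neither was separated from 1. Eng was 1.14 (1.08 to 1.21) in all endothelial cells, and Ltbp4 0.783 (0.696 to 0.882) with 0.801 in capillary-like and 0.731 in endocardial-like cells. The Ltbp1 ratio was 0.912 (0.785 to 1.06) in capillary-like cells, not separated from 1, and 1.41 (1.12 to 1.80) in endocardial-like cells. The difference between these subtypes was not tested.

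Among the smaller types, lymphatic endothelial cells had at least 100 UMIs for 4 of the 10 genes. Eng was higher by the fold there, with 183 in Sham (127 to 256, 34 UMIs) and 305 in TAC (241 to 381, 78 UMIs), a ratio of 1.67 (1.10 to 2.57), where 5.79% of all genes were higher and 5.19% lower. One Sham cell gave 10 of the 34 UMIs, and the Eng ratio was 2.32 with both libraries clustered together and 2.52 with cells of at least 500 detected genes. The Tgfbr2 ratio was 1.48 (1.13 to 1.94) and that of Tgfbr3 0.694 (0.528 to 0.912) in the same cells. In Sham, 1 cell gave 30 of the 113 Tgfbr3 UMIs, and the Tgfbr3 ratio without that cell was not taken. Smooth muscle cells had 100 UMIs only for Ltbp1, with a ratio of 1.09 (0.789 to 1.49).

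Ltbp3 had ratios of 0.634 in cardiomyocytes, 0.748 in fibroblasts and 0.738 in endothelial cells (0.501 to 1.09), of which that in cardiomyocytes was past the fold. Pericytes (54 and 30 UMIs) and macrophages (19 and 8 UMIs) had fewer than 100 Ltbp3 UMIs and were not counted by the fold, at levels of 29.4 and 15.6 in pericytes and 8.60 and 3.06 in macrophages. Over all cells its level was 34.1 in Sham and 22.9 in TAC, a ratio of 0.672 (0.605 to 0.746). Macrophages held fibroblast markers at 4.08% and 3.95% of the fibroblast level, and the part of fibroblast RNA in their Ltbp3 values was not tested. Tgfb2 over all cells was 40.5 and 59.7, a ratio of 1.47 (1.36 to 1.60), with ratios from 1.11 to 1.83 in the 4 large types that had 100 UMIs, past the fold in cardiomyocytes and endothelial cells. Macrophages, with 15 and 16 Tgfb2 UMIs, had levels of 6.79 and 6.13.

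Of the 10 genes, 8 had at least 1 upstream window in the RefSeq promoter table of build GRCm38.p6. For the 4 genes past the fold in a large cell type the first window listed is shown, 250 bases up to the base before the annotated start, with motif matches in capitals.
Tgfb2, chr1:186705990-186706239, minus strand: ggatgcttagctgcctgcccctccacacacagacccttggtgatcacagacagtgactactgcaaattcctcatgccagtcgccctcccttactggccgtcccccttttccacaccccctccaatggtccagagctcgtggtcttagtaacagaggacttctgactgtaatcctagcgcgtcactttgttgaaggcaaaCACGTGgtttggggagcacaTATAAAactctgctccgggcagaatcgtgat
Ltbp1, chr17:75005279-75005528, plus strand: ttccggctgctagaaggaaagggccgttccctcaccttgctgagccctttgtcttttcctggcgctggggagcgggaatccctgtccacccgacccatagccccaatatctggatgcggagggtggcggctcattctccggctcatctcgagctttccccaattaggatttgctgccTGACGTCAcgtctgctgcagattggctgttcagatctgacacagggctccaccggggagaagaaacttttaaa
Tgfbr2, chr9:116175364-116175613, minus strand: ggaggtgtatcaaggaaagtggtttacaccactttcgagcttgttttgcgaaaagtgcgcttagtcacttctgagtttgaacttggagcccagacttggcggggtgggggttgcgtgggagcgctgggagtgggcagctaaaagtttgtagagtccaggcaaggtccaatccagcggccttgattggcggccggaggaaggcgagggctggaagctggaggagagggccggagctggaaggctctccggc
Ltbp3, chr19:5740650-5740899, plus strand: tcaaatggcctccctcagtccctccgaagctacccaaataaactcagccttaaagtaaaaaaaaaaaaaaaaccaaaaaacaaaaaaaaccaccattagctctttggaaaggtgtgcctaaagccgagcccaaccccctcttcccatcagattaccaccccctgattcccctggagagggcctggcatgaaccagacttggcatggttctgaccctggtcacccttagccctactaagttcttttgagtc
Motifs were searched on both strands, a set picked after the windows had been read, namely AP-1 sites (TGANTCA), cyclic AMP response elements (TGACGTCA), E-boxes (CACGTG), core promoter elements (TATAAA), MCAT elements (CATTCC), SMAD palindromes (GTCTAGAC) and GC boxes (GGGCGG). Tgfb2 had 1 E-box, which 6.02% of all 32851 windows held, and 1 TATAAA element, held by 12.4%. The Ltbp1 window shown had 1 cyclic AMP response element, held by 1.55%, and the other Ltbp1 window in the table, chr17:75178531-75178780, had no match. The windows of Tgfbr2 and Ltbp3 had no match, and none of the member windows held the SMAD palindrome. The GC box, held by 32.7% of windows, occurred in those of Tgfb1 (5 matches in a window of 75.2% GC) and in at least 1 window each of Tgfbr1 and Ltbp4. A match is a description of the letters and not a site shown to be used. Tgfb2 spans 83198 bp on chromosome 1 and Ltbp1 386945 bp on chromosome 17, while Ltbp3 spans 17629 bp on chromosome 19 and Tgfbr2 91068 bp on chromosome 9.

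The surrounding pathway was followed in 3 lists. Of 21 genes that store or activate the latent complex, 9 had 100 UMIs in cardiomyocytes, of which 2 were higher in TAC and 0 lower (10.1% and 5.88% of all genes). They were Itgb6, the beta chain of an integrin that releases TGF-beta, at 149 and 251 per 1000000 (2008 and 3295 UMIs, ratio 1.69, 1.59 to 1.78), and the small proteoglycan Bgn at 4.38 and 6.93. The Itgb6 ratio was 1.66 in the Pdzrn4 cluster and 1.74 in the Ankrd1 cluster. Its partner Itgav, the alpha chain, had 20.8 and 22.4 in cardiomyocytes (1.08, 0.909 to 1.27). In fibroblasts 3 of 17 were higher and 1 lower (7.96% and 3.38% of all genes). Those higher were Bgn (1.58, 1.45 to 1.73), Lrrc32, a cell-surface holder of latent TGF-beta (1.79, 1.30 to 2.47, on 64 and 109 UMIs), and Emilin1, which binds the ligand precursor (1.54, 1.26 to 1.89). The 1 lower was Aspn, a small proteoglycan that binds TGF-beta (0.491, 0.435 to 0.553). In macrophages 1 of 6 was higher, Itgav (1.57, 1.32 to 1.87), and 1 lower, Fbn1, the microfibril gene (0.355, 0.242 to 0.514). There 7.15% of all genes were higher and 6.54% lower. Fbn1 was at 1125 per 1000000 in fibroblasts against 45.3 in Sham macrophages, which held fibroblast markers at 4.08% of the fibroblast level. The part of fibroblast RNA in the macrophage Fbn1 values was not tested. In endothelial cells 0 of 9 were higher and 1 lower, Itgb5 (0.566, 0.433 to 0.738), next to 6.71% and 4.64% of all genes. Pericytes had 0 of 9 past the fold (4.48% of all genes higher and 4.1% lower).

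Of 17 signal transducers and inhibitors, 0 of 16 passed the fold in fibroblasts and 0 of 12 in pericytes. In cardiomyocytes 1 of 15 was higher, the decoy receptor Bambi (1.60, 1.08 to 2.38, on 45 and 70 UMIs). The shares of all genes higher and lower were 7.96% and 3.38% in fibroblasts, 4.48% and 4.1% in pericytes, and 10.1% and 5.88% in cardiomyocytes. Endothelial cells had 1 of 15 higher, the inhibitory Smad6 at 155 and 278 (1.79, 1.59 to 2.02), and 1 lower, Tab1 (0.581, 0.405 to 0.829), where 6.71% of all genes were higher and 4.64% lower. The Smad6 level differed between subtypes, whose shares of cells also differed as given above. It was 87.1 and 111 in capillary-like (1.27, 1.05 to 1.55), 370 and 702 in endocardial-like (1.90, 1.55 to 2.33) and 967 and 1125 in arterial-like cells (1.16, 0.882 to 1.55), so that the ratio was past the fold within endocardial-like cells but not within the other subtypes. Macrophages had 1 of 14 higher, Fkbp1a, whose protein holds the type I receptor inactive (1.59, 1.20 to 2.11). In them 7.15% of all genes were higher and 6.54% lower. Smad3, a carrier of the signal, was within the fold in the large types that had 100 UMIs, with 1.40 in fibroblasts (1.30 to 1.51), 1.37 in macrophages (1.19 to 1.59) and 0.740 in cardiomyocytes (0.675 to 0.812).

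Of 17 genes known to be induced by TGF-beta, 3 of 15 were higher in TAC fibroblasts and 0 lower, where 7.96% of all genes were higher and 3.38% lower. They were Timp1, a protease inhibitor (5.53 to 18.0 per 1000000, 3.25, 2.13 to 5.09), the matrix protein Tnc (16.8 to 50.1, 2.99, 2.34 to 3.83) and the transcription factor Bhlhe40 (1.88, 1.498 to 2.36). Other direct target genes did not pass, with 0.823 for Ccn2 (0.706 to 0.958) and 1.03 for Pmepa1 (0.935 to 1.12), and the list's median ratio in fibroblasts was 1.05 against 1.01 over all genes. In cardiomyocytes 1 of 6 was higher, Col3a1 (1.67, 1.20 to 2.33), where 10.1% of all genes were higher. In endothelial cells 2 of 7 were higher, Fn1 (1.54) and Col3a1 (2.04), next to 6.71% of all genes. In pericytes 1 of 7 was higher, Postn (1.55, 1.30 to 1.84), next to 4.48%, and in macrophages 0 of 3, next to 7.15%. Pmepa1 was at 0.761 in cardiomyocytes (0.652 to 0.887). Col3a1 and Bgn are fibroblast transcripts, and Col3a1 was at 4.53 and 7.54 in cardiomyocytes. Fibroblast markers stood at 6.13% (Sham) and 6.01% (TAC) of their own level in endothelial cells, with 9.75% and 9.09% in the endocardial-like ones. In pericytes they stood at 13.2% and 12.4%. The part of fibroblast RNA in the values of cardiomyocytes, endothelial cells and pericytes was not tested.

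Across the 30 clusters of at least 30 cells in both libraries, the genes most like the members were listed by the Pearson correlation of log levels over 10694 genes, as a description only, since clusters of a library share its depth and background RNA. The closest were Fbn1 for Ltbp4 (r = 0.916), Dock9 for Eng (0.931), Zfp521 for Tgfbr3 (0.934), Slc6a9 for Tgfb3 (0.933), Tmsb4x for Tgfb1 (0.917), Tiam2 for Tgfb2 (0.873), Wdr44 for Tgfbr2 (0.857), Fam20a for Ltbp1 (0.820) and Il16 for Tgfbr1 (0.806). Among the members, Eng and Ltbp4 were most alike (0.826), followed by Tgfb1 with Tgfbr2 (0.789) and Tgfb2 with Ltbp3 (0.760), and the lowest value was that of Tgfb1 with Tgfb2 (-0.442).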

How the data were processed

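Hearts were dissociated into single cells and sequenced as 2 10x Genomics libraries. The deposited values are raw UMI counts, as the authors' counting gave them, with no scaling. The matrix headers and the submitters' processing notes name Cell Ranger 7.1.0, whereas the methods name Cell Ranger 6.0 with Seurat 4.0. The kit is version 3 in the labels and version 2 in the methods. The genome build, the barcode filter and the counting of introns or strand are not given in the sources used here. Of 55357 gene identifiers, 52081 (94.1%) were in GENCODE M21 (GRCm38), used for positions.

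The matrices held 28146691 (Sham) and 29108986 (TAC) UMIs in 9935 and 9932 barcodes. Barcodes under 200 genes (1 per library) and Scrublet doublets (459 and 479) were removed, and of 32 barcode sequences found in both libraries the 30 Sham and 29 TAC ones that passed were kept. Cells were clustered per library (scanpy 1.11.5, igraph 0.11.9, Python 3.11.15) on 2000 variable genes, 30 principal components, 15 neighbours and resolution 1, with the members and pathway genes left out. Clusters were named from at least 3 markers of fixed lists. A Sham cluster of 49 cells led by cell-cycle genes stayed unnamed. Mitochondrial genes made up 0.601% and 0.516% of UMIs, and Malat1, a nuclear RNA, 10.3% and 11.9%. The labels say single cells, and whether some barcodes held nuclei, so that a level would measure nuclear RNA, was not tested.

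Intervals are exact ones of the Poisson type for levels (summed UMIs per 1000000), of the Clopper-Pearson type for shares and of the conditional binomial type for ratios. Shares of cells were taken after thinning to 1000 UMIs in 1 draw, and cells under 1000 UMIs were left out of them. The ratio step was tested on Poisson counts simulated from a pooled profile with a planted fold. That simulation held no gathering of UMIs in single cells and no variation between libraries, so it cannot test the effect of either. The members, gene lists and alternatives were chosen with earlier results of these data known. All 10 members are named, as are pathway genes past the fold of 1.5 and, chosen after their values were seen, Itgav, Smad3, Ccn2 and Pmepa1. A few other genes are not reported here. Alternatives covered filters, doublets, clustering, scaling, thresholds and thinning. Values within clusters of both libraries and by gene span were added after the data were seen.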

Additional observations from a re-analysis of the deposited data

How the results depend on the processing

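No paired analysis was possible because Sham and TAC are single pools of hearts. The count of 4 pairs higher in TAC held under all alternatives except a minimum of 200 UMIs (3) and a fold of 2 (0). The count of 1 pair lower was 2 without removal of doublets, 2 at a minimum of 50 UMIs and 0 at a fold of 2. No ratio past the fold changed direction, and all 5 stayed past it under the 11 alternatives of filter, clustering and scaling. Their ranges were 1.82 to 1.99 for Tgfb2, 1.56 to 1.66 for Ltbp1 and 0.566 to 0.637 for Ltbp3 in cardiomyocytes, 1.59 to 2.01 for Tgfb2 in endothelial cells and 1.54 to 1.60 for Tgfbr2 in macrophages. Leaving out the shared barcodes changed no call. The Eng ratio of lymphatic endothelial cells ranged from 1.66 to 2.52, the last at 500 detected genes. Of 648 ratios, 2 left the counting interval of the reported value, Eng in capillary-like cells (1.002 without removal of doublets) and Ltbp1 in endocardial-like cells (1.82 as a mean over cells). Of 1000 levels 40 did so, 23 of them without removal of doublets. Shares of cells with a UMI moved with the depth of thinning in 251 of 300 cases. Depth left 8 of the 50 pairs under 100 UMIs, and these were not counted by the fold.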
